A study of Mus musculus with 4 samples.

Results

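Of the 29595 rows of the deposited read count table, 48 autosomal rows were nearly silent in wild-type right ventricles and carried reads in both Ezh2-deficient right ventricles. A row qualified with at most 4 reads in each of the 2 wild-type libraries and at least 10 reads in each of the 2 mutant libraries. Rows on the X and Y chromosomes and the mitochondrial genome were left out, where another 11 rows met the same limits, and 6 qualifying autosomal rows were set aside by name. The same read counts therefore chose the rows and describe them, so the difference between genotypes in these rows is a description and not a finding of a test. The 48 rows lie at 45 loci, because 3 spans are listed under a pair of names or overlap on both strands. They comprise 27 rows with gene names and 21 with clone-type names.

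The hearts came from adult mice of a mixed C57BL/6 background, with right ventricles from 2 Ezh2-deficient mutants (called mutants 1 and 3 after their labels) and 2 wild types (wild types 1 and 2). The labels do not say which part of Ezh2 was removed, in which cells or with which driver, and they name no litter or batch. Libraries of polyadenylated RNA were treated with a duplex-specific nuclease that digests abundant species. Very abundant transcripts are thereby thinned and rare ones are enriched.

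Ezh2 is the enzyme of Polycomb repressive complex 2 that methylates histone H3, a mark that keeps developmental genes silent in tissues where they have no role. Its targets in many cell types lie at promoters rich in CpG dinucleotides and include transcription factors of other lineages. In bulk tissue such as these ventricles, more cells of a type and more RNA per cell cannot be told apart.

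The promoters of 4 members that carry the results are shown here, 2 of skeletal muscle genes (Vgll2 and Chrna1), that of Tchhl1, the member with the most mutant reads, and that of Gsta2, a symbol carried by a pair of member rows. The Gsta2 promoter was matched by symbol and has the strand of the minus-strand row, which had fewer reads than the plus-strand row. Each runs 5′ to 3′ on the gene's own strand from 250 bases before to 50 bases after the RefSeq start site, with every CpG in capitals. They come from RefSeq, build GRCm38.p6, and lie at chr10:52022252-52022551 (plus strand, Vgll2), chr2:73580289-73580588 (minus strand, Chrna1), chr9:78347096-78347395 (minus strand, Gsta2) and chr3:93468504-93468803 (plus strand, Tchhl1).
Vgll2: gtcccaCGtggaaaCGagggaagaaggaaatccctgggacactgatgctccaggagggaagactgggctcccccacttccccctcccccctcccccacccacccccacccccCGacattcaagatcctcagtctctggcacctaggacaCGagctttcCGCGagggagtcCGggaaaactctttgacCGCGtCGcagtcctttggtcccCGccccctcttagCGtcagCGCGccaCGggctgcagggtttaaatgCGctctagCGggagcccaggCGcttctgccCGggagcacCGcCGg
Chrna1: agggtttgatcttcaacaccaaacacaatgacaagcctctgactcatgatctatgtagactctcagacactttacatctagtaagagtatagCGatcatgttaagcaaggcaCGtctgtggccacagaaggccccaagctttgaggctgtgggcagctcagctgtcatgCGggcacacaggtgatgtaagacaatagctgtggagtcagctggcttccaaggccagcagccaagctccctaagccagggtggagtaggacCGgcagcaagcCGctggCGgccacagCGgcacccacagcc
Gsta2: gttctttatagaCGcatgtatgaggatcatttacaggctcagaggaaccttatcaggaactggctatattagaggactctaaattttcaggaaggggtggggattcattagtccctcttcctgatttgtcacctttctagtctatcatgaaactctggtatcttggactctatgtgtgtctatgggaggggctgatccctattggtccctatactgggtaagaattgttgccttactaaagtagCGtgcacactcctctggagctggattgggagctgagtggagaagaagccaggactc
Tchhl1: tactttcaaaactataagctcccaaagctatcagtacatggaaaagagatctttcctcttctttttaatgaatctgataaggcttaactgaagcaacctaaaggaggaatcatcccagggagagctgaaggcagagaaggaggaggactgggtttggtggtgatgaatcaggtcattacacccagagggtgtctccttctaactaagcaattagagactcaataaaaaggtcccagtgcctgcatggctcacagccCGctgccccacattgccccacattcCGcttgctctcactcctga
The Vgll2 promoter holds 21 CpG dinucleotides, the Chrna1 promoter 7, and the promoters of Gsta2 and Tchhl1 2 each. The E-box CANNTG, the hexamer bound by myogenic and many other helix-loop-helix factors, reads the same on both strands. It occurs 3 times in the Chrna1 promoter, starting 92, 73 and 44 bases before the start site, and the first and the last of these spell CAGCTG. Vgll2 holds it once, 246 bases before the start, and the Gsta2 and Tchhl1 windows hold none. A match is a description of these letters and not evidence of binding.

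Library totals ran from 18177642 to 23853394 reads, of which 34.7% to 47.3% were mitochondrial. Effective library sizes after TMM scaling lay between 19720131 and 22457546. The Ezh2 row itself held 73 and 70 reads in mutants 1 and 3 and 77 and 67 in wild types 1 and 2, so its total does not mark the genotype. All 7 cardiomyocyte markers were detected, at 799470 to 1039385 reads in sum. Reads of the Y-linked gene Ddx3y numbered 754 and 659 in mutants 1 and 3 and 2 in each wild type. For Xist, the X-inactivation RNA, they numbered 64 and 17 against 638 and 3227. Sex and genotype therefore cannot be told apart in any value below. Markers of atrial muscle also moved with genotype: Nppa had 70979 and 58600 reads in the mutants against 8432 and 3437. The other 5 atrial markers with a row summed to 3325 and 2614 against 1480 and 390. The atrial ligand Bmp10 was at 1, 0, 0 and 0 reads. The part of sex and of atrial tissue in the members' values was not tested.

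In the order mutant 1, mutant 3, wild type 1 and wild type 2, the 48 members had median reads of 15, 14, 2 and 2. They summed to 870, 754, 98 and 92 reads. Scaled by effective library size, these sums are 40.6 and 38.2 CPM in the mutants against 4.36 and 4.63 CPM in the wild types, CPM being reads at a common library size. The highest single member had 47 reads in mutant 1 and 37 in mutant 3. The lower mutant count was 10 to 12 for 22 members and 20 or more for 7. Only 2 members had no read in either wild type. Since the rule asked for at least 10 reads in each mutant, rows high in 1 mutant alone could not be members. Within that limit, 25 members had more reads in mutant 1, 19 more in mutant 3 and 4 equal numbers. Where the mutants differed by over 1.5 times in unscaled reads, all 8 such members were higher in mutant 1. In CPM the split was not one-sided. The level in mutant 1 ran from 0.633 (Capn9) to 2.76 (Jsrp1) times that in mutant 3.

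**Figure D1:**
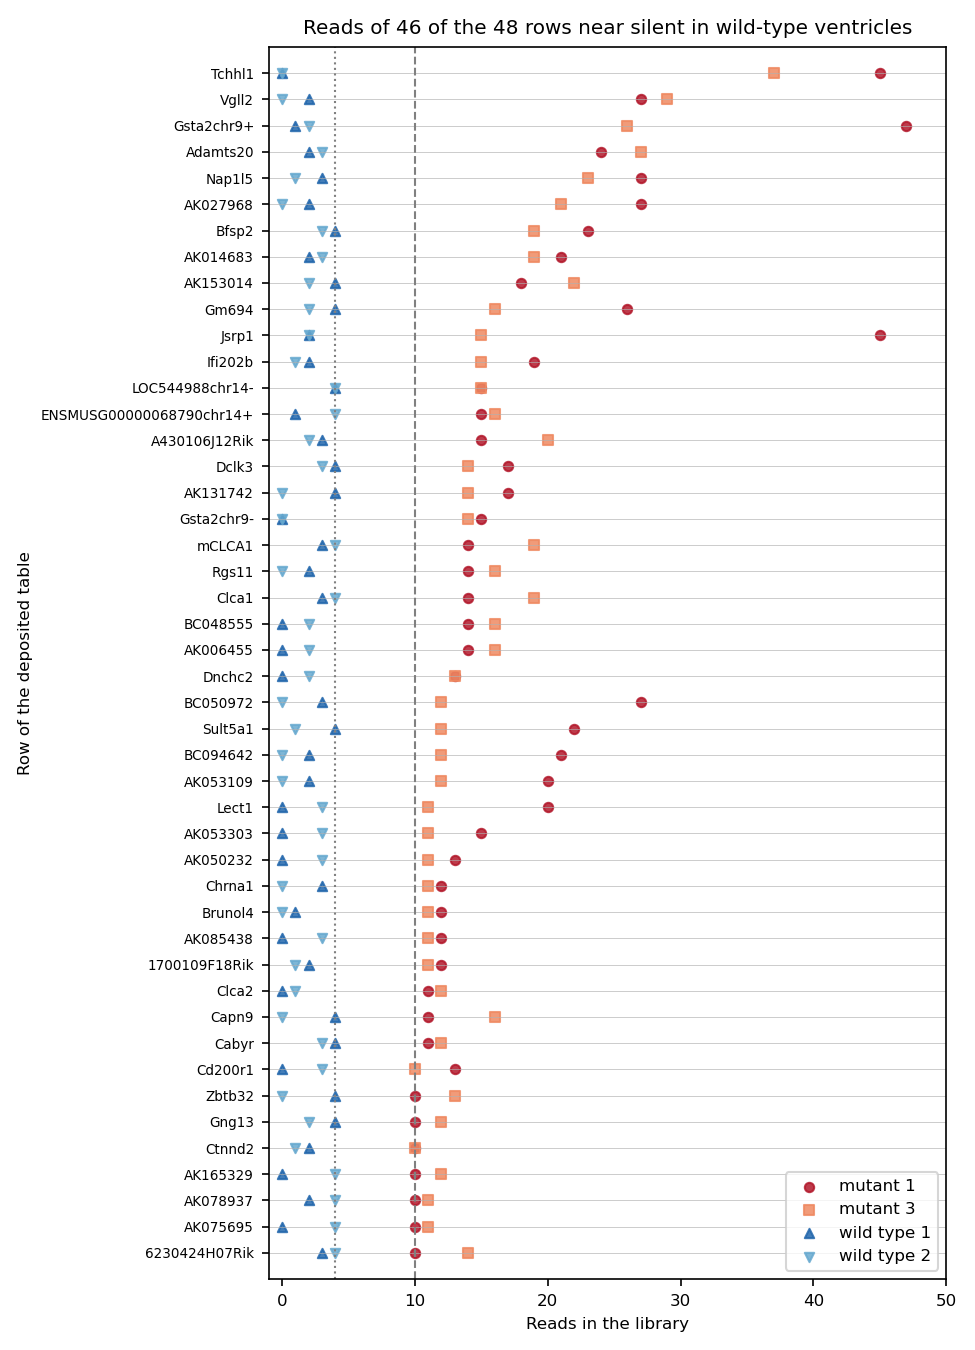
Reads per library (horizontal axis, linear) of 46 of the 48 rows (vertical axis, sorted by the lower mutant count). The dotted line marks 4 reads and the dashed line 10 reads, the limits that chose the rows. Most mutant points lie just right of the dashed line, and Tchhl1, Vgll2 and the plus-strand Gsta2 row reach at least 26 reads in both mutants.

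The members are rare transcripts even in the mutants. Their mean mutant level ran from 0.487 to 1.99 CPM with a median of 0.739 CPM, against 8.72 CPM over all rows tested. The low-count filter kept 33 of the 48, and each passed only through its mutant reads. Against wild-type reads pooled per genotype and scaled by effective library size, the mutant-to-wild-type ratio of the 46 members with any wild-type read ran from 3.38 to 28.8, with a median of 7.89. Intervals given below for such ratios are exact binomial 95% intervals of the read split and cover counting error only. With edgeR's quasi-likelihood test and Benjamini-Hochberg adjustment over all 16128 tested rows, 0 of the 33 members passed an adjusted p of 0.05 (adjusted p 0.0654 to 0.469), while 0.105% of tested rows and 0.0578% of tested autosomal rows were called higher in mutants. At an unadjusted p under 0.05, 32 of the 33 were higher, where 6.49% of all tested rows were. DESeq2 called 3 of the 48, where it called 0.852% of its tested rows higher: Tchhl1 (adjusted p 0.000781), the plus-strand Gsta2 row (adjusted p 0.0140) and Vgll2 (adjusted p 0.0485). Nothing is read from these shares, because the rule used the same reads.

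The mirrored rule, at least 10 reads in both wild types and at most 4 in both mutants, found 7 autosomal rows and 1 on the X chromosome. Of 11442 autosomal rows with at most 4 reads in both wild types, 54 (0.472%) had 10 or more in both mutants, before the 6 named rows were set aside. In the same rows, 113 reached 10 reads in mutant 1 alone and 47 in mutant 3 alone. Of 11257 autosomal rows with at most 4 reads in both mutants, 7 (0.0622%) had 10 or more in both wild types, and 47 reached 10 in each wild type alone. The size of this imbalance depends on scaling. With the limits applied to reads scaled by TMM to a common depth, 36 rows stood against 3, and with reads scaled by total counts 19 stood against 10.

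The 7 mirrored rows had the following reads. Oprd1, the delta opioid receptor, had 22 and 24 reads in the wild types against 1 and 0 in mutants 1 and 3, a wild-type-to-mutant ratio of 44.7 (7.63 to 1804). Ces1, a carboxylesterase, had 28 in each wild type against 4 and 1. The clone row 4930553D19Rik had 27 and 46 against 3 and 4, the most wild-type reads of the 7. These 3 rows were the only mirrored ones with 20 or more reads in both wild types. Wdr72, a protein of enamel formation, had 12 and 20 reads against 0 and 3. Slc46a2, a solute carrier, had 11 and 12 against 0 and 4. Cdca5, the cohesion factor sororin of dividing cells, had 10 and 11 against 4 and 4, and the clone row AK139634 had 12 and 10 against 1 and 4. No developmental transcription factor was among the 7.

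By gene class, assigned from general knowledge after the values were seen, the members spread over unrelated roles. Neuronal or G-protein signalling held 7 rows, epithelial, lens or germline structure 4, and skeletal muscle, chloride channel accessory, conjugating enzyme, immune and secreted or matrix 3 each. A cilium motor row and an antisense RNA of the Hoxd cluster made up the rest of those with a class, and 20 rows were given none. Only 3 members, among them Jsrp1 and Chrna1, stood on any of the gene lists used, and none stood on the lists of Hox genes or of other developmental transcription factors.

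The skeletal muscle members were a transcriptional cofactor, a receptor subunit and a junction protein. Vgll2, a cofactor of TEAD factors with expression in skeletal muscle (chromosome 10, 51742492 to 51748277, mm9), had 27 and 29 reads in mutants 1 and 3 and 2 and 0 in wild types 1 and 2. Both mutants were alike, at 1.37 ± 0.149 CPM (SD, n = 2), and the ratio was 28.8 (7.61 to 244). Chrna1, the alpha subunit of the muscle acetylcholine receptor (chromosome 2, 73401338 to 73418363), had 12 and 11 reads against 3 and 0, a ratio of 7.89 (2.38 to 41.0), and did not pass the filter. Jsrp1, a protein of the sarcoplasmic reticulum junction (chromosome 10, 80271246 to 80276240), had 45 and 15 reads against 2 in each wild type, a ratio of 15.4 (5.72 to 58.5). Its level in mutant 1 was 2.76 times that in mutant 3, unlike Vgll2 and Chrna1.

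Most fast skeletal fibre markers stood apart in mutant 1. Of the 12 fibre markers other than Ckm, which the heart also expresses at high level, 8 had over 3 times the reads in mutant 1 of any other library. Tnnt3, a fast troponin T, had 1516 reads in mutant 1 and 20, 8 and 5 in mutant 3, wild type 1 and wild type 2. Mylpf, a fast myosin light chain, had 798 against 11, 19 and 4, and Atp2a1, the fast calcium pump, 848 against 28, 19 and 32. The 12 markers summed to 7367, 1509, 1134 and 824 reads. The myogenic factors Myog (0, 3, 0 and 2 reads) and Myod1 (2, 0, 4 and 0) were near 0 in all libraries. Other fast-fibre genes did not follow this order. The fast myosin Myh4 had 951 and 655 reads in the mutants against 224 and 238, and Mybpc2, a fast myosin-binding protein, 501 and 520 against 464 and 182. Myl1, a fast myosin light chain, was highest in mutant 3, with 422 and 1212 against 163 and 132, as was the calcium store protein Casq1, with 414 and 770 against 334 and 190. Jsrp1 was higher in mutant 1, and Vgll2 and Chrna1 differed by at most 2 reads between the mutants. The rule asked for at least 10 reads in each mutant, so a gene high in mutant 1 alone could not be a member. The muscle genes Tnnc2 (759, 3, 2 and 0 reads), Ryr1 (188, 3, 3 and 2) and Myoz1 (69, 3, 3 and 0) missed the rule only through mutant 3. The part of skeletal fibres in the members' values was not tested.

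**Figure D2:**
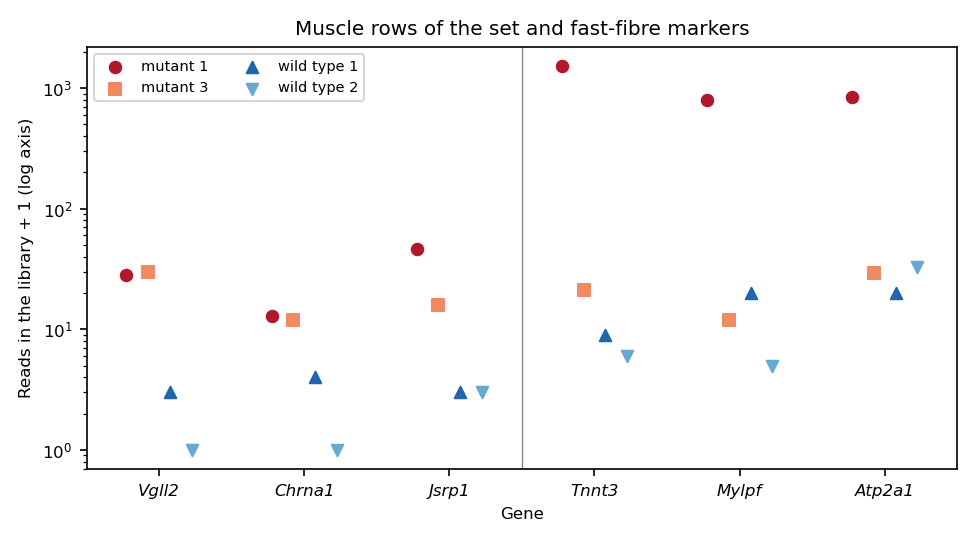
Reads plus 1 per library (logarithmic vertical axis) for the 3 skeletal muscle members (left panel) and 3 fast-fibre markers (right). These 3 fast-fibre markers are far higher in mutant 1 than in the other libraries, whereas Vgll2 and Chrna1 lie close together in both mutants. The rule asked for at least 10 reads in each mutant, so the closeness of members between the mutants is partly set by it.

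The list of skeletal muscle contractile and calcium-handling genes that holds Jsrp1 had 30 rows, of which 25 were tested. edgeR called 1 of them, which was higher in the mutants, and DESeq2 called 5, all higher. Over all rows they tested, edgeR called 0.105% higher and DESeq2 0.852%. An unadjusted p under 0.05 was reached by 16, and 0 of these were lower, where 6.49% of all tested rows were higher. The member Jsrp1, which the rule chose, is among the 16. The list's median log2 fold change was 1.98, against 0.0046 over all tested rows. Without mutant 1, the median over the 25 tested rows was 0.71. Myot, a Z-disc protein, was the called row, with 1418 and 1247 reads in the mutants against 239 and 139 (log2 fold change 2.87, edgeR adjusted p = 0.0124). Acta1, skeletal alpha-actin and also a fetal heart gene, had 27638 and 32603 reads against 9344 and 2316. Smpx, a small muscle protein, had 6491 and 7221 against 4750 and 4905, and Tnnt1, slow troponin T, 1815 and 869 against 299 and 226. Tmem38a, a reticulum cation channel, had 4658 and 3912 against 6343 and 3709. Of these 5 genes, Myot, Acta1, Smpx and Tnnt1 had more reads in both mutants than in both wild types, and the Tmem38a groups overlapped. In scaled reads, 22.3% of all 16128 tested rows had both mutants above both wild types.

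Around Chrna1, the list of acetylcholine receptor and muscle junction genes had 11 rows and 6 tested. edgeR and DESeq2 called 0 of them, an unadjusted p under 0.05 was reached by 1 row in each direction, and the median log2 fold change was -0.17. Of all tested autosomal rows, 6.43% were higher and 4.34% lower at that unadjusted p. Ache, acetylcholinesterase, was the list's row higher in the mutants, with 64 and 71 reads against 23 and 25. Agrn, which clusters the receptor, had 675 and 709 reads against 807 and 799, and its muscle co-receptor Lrp4 167 and 139 against 236 and 267. Dok7 (259 and 220 against 321 and 190) and Rapsn (213 and 199 against 288 and 191), an activator of the kinase Musk and the receptor's anchor, overlapped between genotypes. The row lower in the mutants was Lrp4. Chrnd (0 reads in all), Chrng (0, 1, 0 and 0), Chrne (7, 1, 0 and 0), which are other receptor subunits, and the kinase Musk (3, 4, 1 and 5) had few reads in every library.

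Tchhl1, a trichohyalin-like protein of epidermis and hair (chromosome 3, 93272676 to 93275902), was the member with the most reads in both mutants together. Mutants 1 and 3 had 45 and 37 reads and both wild types 0, or in the mutants 1.99 ± 0.158 CPM (SD, n = 2). With the wild-type group set to a floor of 3 reads in all, the ratio was 28.1, with a lower interval limit of 9.29. Bfsp2, the lens filament protein phakinin (chromosome 9, 103327254 to 103382658), had 23 and 19 reads against 4 and 3. An opposite-strand row, AK134047, covers 65.6% of it and had 15, 25, 1 and 7 reads, and since strand use in the counting is not given, the pair cannot be told apart. Capn9, a calpain of the stomach lining, had 11 and 16 against 4 and 0, and Cabyr, a calcium-binding sperm tail protein, 11 and 12 against 4 and 3. Cabyr was the tested member that missed an unadjusted p of 0.05 in edgeR (adjusted p = 0.469). Of 5 lung or airway epithelium markers, Sftpa1 and Scgb1a1 had no read and the others summed to 2 to 4 reads per library.

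The conjugating enzymes were led by the alpha glutathione S-transferase Gsta2 on chromosome 9, which the table lists on both strands. The plus-strand row (78141848 to 78153332) had 47 and 26 reads in the mutants against 1 and 2, a ratio of 25.0 (8.24 to 124). The minus-strand row (78178827 to 78194952), 25.5 kb away, had 15 and 14 against 0 and 0. Against the same floor, its ratio was 9.94, with a lower interval limit of 3.08. Gsta1, 24.9 kb from the plus-strand row, had 40 and 26 reads against 4 and 6 (log2 fold change 2.72, SE 0.60, edgeR adjusted p = 0.175). Gsta4, in the same cluster, had 928 and 759 against 696 and 394 (log2 fold change 0.69, edgeR adjusted p = 0.410). These are near-identical copies in part, so reads of Gsta1 and both Gsta2 rows may be shared between them.

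Across the glutathione S-transferase family, 22 of 23 rows were tested and edgeR called 0, DESeq2 calling the plus-strand Gsta2 row. At an unadjusted p under 0.05, 4 were higher, all of them alpha rows of chromosome 9 (Gsta4, Gsta1 and both Gsta2), and 2 were lower. The lower ones were the pi-class genes Gstp1, with 1336 and 1113 reads against 2903 and 1753, and Gstp2, with 650 and 536 against 1463 and 829. Gsta3, an alpha gene on chromosome 1, had 34 and 34 reads against 45 and 20. The family was chosen for its member, so these counts describe it, beside 6.43% higher and 4.34% lower of all tested autosomal rows. Sult5a1, a sulfotransferase on chromosome 8 (125666747 to 125682155), had 22 and 12 reads against 4 and 1, and was higher in mutant 1.

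The chloride channel accessory rows lie in the Clca cluster of chromosome 3. Clca1 and mCLCA1 are the same span (144393280 to 144423703) with the same reads, 14 and 19 in the mutants against 3 and 4. Clca2, 36.3 kb on (144460048 to 144482441), had 11 and 12 against 0 and 1, a ratio of 23.7 (3.84 to 975). Clca4, which follows Clca2, had 5 and 6 against 0 and 1, below the limits of the rule. Clca6 (0, 3, 0 and 0 reads), Clca3 (0, 1, 0 and 3) and Clca5 (2, 1, 4 and 0), at the higher coordinates of the cluster, were near 0 in every library. The mutant reads therefore lay at the low-coordinate end of the cluster. The deposited names match more than 1 current symbol, and near-identical copies may share reads.

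The neuronal and G-protein members included a gamma subunit and the regulator of the same class of signalling. Gng13, a G-protein gamma subunit of taste and retinal cells, had 10 and 12 reads against 4 and 2. Rgs11, an RGS protein of the retina (chromosome 17, 26339907 to 26348269), had 14 and 16 against 2 and 0. They lie 484 kb apart with 39 rows between them, of which 31 were tested and 2 were higher at an unadjusted p under 0.05. Over all tested autosomal rows the share was 6.43%. Nap1l5, an imprinted single-exon gene (chromosome 6, 58855227 to 58857120), had 27 and 23 reads against 3 and 1, a ratio of 12.9 (4.72 to 49.0). It lies within the opposite-strand gene Herc3, which had fewer reads in the mutants, 546 and 445 against 711 and 586.

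Ctnnd2, a neuronal catenin, had 10 reads in each mutant against 2 and 1, and Brunol4, a neuronal splicing factor now named Celf4, 12 and 11 against 1 and 0. Dclk3, a doublecortin-like kinase, had 17 and 14 against 4 and 3. The 8 Schwann cell and neuron markers summed to 8.63 and 8.06 CPM in the mutants against 6.99 and 5.69 CPM, with Th at 0 in all libraries. S100b, one of them, had 33 and 20 reads against 9 and 1, and the part of these cells in the members' values was not tested.

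Among secreted and matrix members, Adamts20, a metalloprotease of the pericellular matrix (chromosome 15, 94100594 to 94234689), had 24 and 27 reads against 2 and 3, a ratio of 10.5 (4.21 to 33.7). Lect1, the cartilage factor chondromodulin now named Cnmd, had 20 and 11 against 0 and 3. Cartilage or bone markers were also higher in sum in the mutants, at 32.5 and 28.4 CPM against 15.9 and 10.4 CPM. Of these, Comp, a matrix protein that tendon also makes, had 534 and 308 reads against 167 and 76, and made up most of the mutant sums. Chad had 26 and 79 reads against 21 and 4, and Spp1 33 and 40 against 6 and 23. Sox9 overlapped between genotypes, with 102 and 117 against 163 and 104. The cartilage genes Acan (1, 14, 1 and 0 reads) and Col2a1 (0, 2, 0 and 0) had few reads, and the bone gene Ibsp had none. Their part in the values of Lect1 was not tested.

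The immune members were Ifi202b, Cd200r1 and Zbtb32. Ifi202b, an interferon-inducible DNA sensor (chromosome 1, 175892706 to 175961922), had 19 and 15 reads against 2 and 1. It shares 28.6% of its span with Ifi205 on the same strand, which had 115 and 118 reads against 29 and 68. Its neighbour Mnda, of the same interferon-inducible cluster, had 154 and 149 against 59 and 96 (edgeR adjusted p = 0.367). Cd200r1, an inhibitory receptor of myeloid cells, had 13 and 10 against 0 and 3. Zbtb32, a lymphocyte repressor, had 10 and 13 against 4 and 0 within the span of Gapdhs, itself at 65 and 61 against 57 and 59. Macrophage markers summed to 175 and 150 CPM in the mutants against 166 and 123 CPM, and T cell markers to 12.6 and 14.8 against 18.1 and 14.3 CPM. Neither sum separated the genotypes. The sum of 5 neutrophil markers did, at 2.43 and 5.12 CPM against 1.34 and 0.604 CPM, and S100a9 made up most of it, with 46 and 68 reads against 23 and 12. Among all tested rows, 22.3% had both mutants above both wild types in CPM. The part of these cells in the values of Cd200r1 was not tested.

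Of Hoxd genes, only an antisense row was a member. The row 1700109F18Rik, now named Hoxd3os1 (chromosome 2, 74548101 to 74550583), had 12 and 11 reads against 2 and 1. AK007148, on the same strand, covers 100% of this row with 7, 8, 2 and 1 reads and may share them. The member also shares 534 bases with the opposite-strand Hoxd3, which had 10 and 5 reads against 0 and 3. The strand of these reads cannot be told apart. The next gene, Hoxd4, had 5 and 6 against 0 and 1, Hoxd8 9 and 11 against 3 and 7, and Hoxd9 3 and 4 against 8 and 0. Evx2, Hoxd13, Hoxd12, Hoxd11, Hoxd10 and Hoxd1 had no read in any library. The reads thus lay in the middle of the cluster, and its ends were silent in all 4 hearts. Of the 39 rows on the list of Hox genes, 13 had no read in any library and 2 were tested, neither called by edgeR or DESeq2 and neither at an unadjusted p under 0.05. Dnchc2 (13 and 13 reads against 0 and 2) lies wholly inside Dync2h1, the cilium transport motor, on the same strand. Dync2h1 had 107 and 68 reads against 51 and 58.

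Rows without a class were mostly clone names. AK027968 (chromosome 9, 14467466 to 14469543) had the most reads of these, 27 and 21 against 2 and 0. Gm694, now named Srarp, had 26 and 16 against 4 and 2, and BC050972, which lies inside Aph1c, 27 and 12 against 3 and 0. AK014683 had 21 and 19 against 2 and 3, and AK153014, inside the heat-shock cochaperone gene Dnajb6, 18 and 22 against 4 and 2. AK006455 and BC048555 are a single span of chromosome 13 with 14 and 16 reads against 0 and 2. On chromosome 14, ENSMUSG00000068790chr14+ (15 and 16 against 1 and 4) and LOC544988chr14- (15 and 15 against 4 and 4) span 2705116 and 2948674 bases of repeated sequence, overlap each other and are uncertain. A430106J12Rik had 15 and 20 against 3 and 2 and lies wholly inside Ccdc88a. BC094642 and AK053109 had 12 reads in mutant 3 and 21 and 20 in mutant 1. AK131742, 439 kb from Bfsp2, had 17 and 14 against 4 and 0. The remaining rows, AK165329, AK085438, AK050232, AK078937, AK075695, AK053303 and 6230424H07Rik, had 10 to 15 reads in the mutants.

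Other rows shared the span of many members. In all, 24 members overlapped another row and 24 overlapped none. For 15 members an overlapping row had 10 or more reads in both mutants, and for 16 an overlapping row exceeded 4 reads in a wild type. The reads of such a row need not lie in the shared bases, which for Gng13 and Chtf18 number 56. Among the 16 are Ifi202b, Nap1l5, Zbtb32, Bfsp2, Dnchc2, Gng13, A430106J12Rik and the clone rows AK153014, BC050972, AK053109, AK165329, AK050232 and AK078937, as well as both chromosome 14 rows. Chrna1 overlapped only the nearly unread AK029663 (1, 2, 0 and 0 reads), and Vgll2, Tchhl1, Jsrp1, Adamts20 and both Gsta2 rows overlapped no other row.

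By chromosome, the members were scattered, and chromosome 9 held the most. It had 8 of the 48, or 0.458% of its 1748 rows, against 0.169% of all 28459 autosomal rows. Of those 8, both Gsta2 rows lie in a single cluster. Chromosome 8 held 5 members, chromosome 3 held 4, and chromosomes 12 and 19 held none. Within 1 Mb of each other there were 8 pairs with 13 members, and 3 of these pairs are the overlapping or doubly named spans above.

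Flanking rows that overlap no member were not used by the rule and could be tested, though some overlap each other and may share reads. Of 263 such rows within 100 kb of a member, 160 were tested and edgeR called 0 of them at an adjusted p under 0.05, while DESeq2 called 1, Dpep1 (DESeq2 adjusted p = 0.0171). At an unadjusted p under 0.05, 17 (10.6%) were higher in the mutants and 5 (3.13%) lower, against 6.43% and 4.34% of all 15565 tested autosomal rows. Their median log2 fold change was -0.01, against 0.00 for those autosomal rows. A log2 fold change above 1 was seen in 6 of the 160 (3.75%), against 4.66% of autosomal rows. Single libraries moved the share that was higher at an unadjusted p under 0.05. It was 4.29% without mutant 1 and 4.29% without mutant 3, against 3.16% and 3.54% of autosomal rows. It was 26.9% without wild type 1, with 8.38% lower, against 15.7% and 11.4% of autosomal rows. Without wild type 2, lower rows outnumbered higher ones, 36 to 34, or 21.7% lower and 20.5% higher against 16.3% and 19.5%.

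Among flanking rows with the smallest p, Dpep1, a membrane dipeptidase 28.0 kb from Sult5a1, had 456 and 307 reads in the mutants against 183 and 129 (log2 fold change 1.33, SE 0.27, edgeR adjusted p = 0.145). Gsta1 followed, with the values above. Near Gng13, BC008155 had 525 and 420 reads against 314 and 256, and Haghl, a hydrolase-like gene, 186 and 150 against 92 and 97. Near Bfsp2, Cdv3 had 2510 and 1871 against 1477 and 1195, and AK048941, which lies inside Cdv3, 82 and 66 against 44 and 27. Dmn, the intermediate filament protein desmuslin, lies 25.0 kb from AK014683 and had 277 and 223 against 130 and 157. The 8 flanking rows of smallest p include Mnda, and none passed edgeR's adjusted threshold (adjusted p 0.145 to 0.367). Gsta1 was the only one of the 8 with a log2 fold change above 2.

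**Figure D3:**
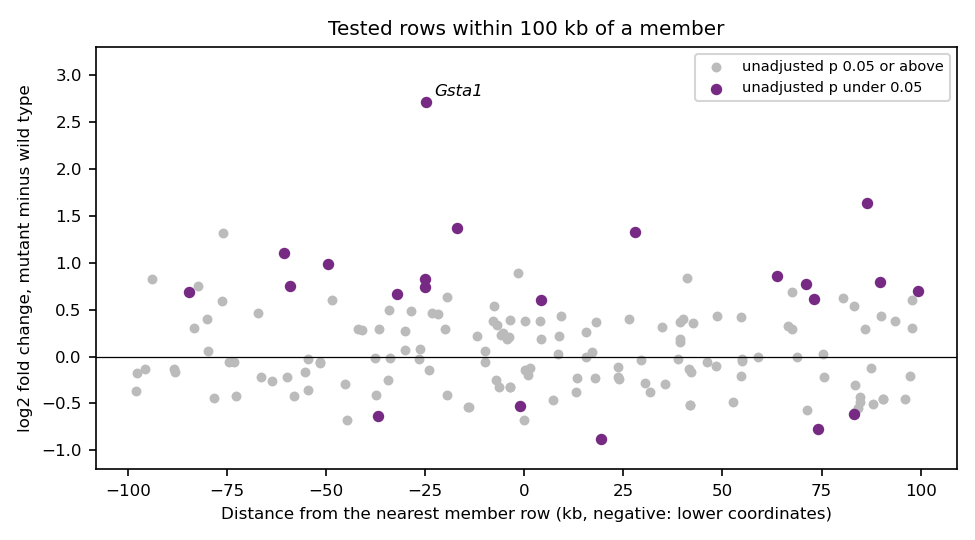
Log2 fold change, mutant minus wild type, of the 160 tested rows within 100 kb of a member (vertical axis) against distance from the nearest member in kb (horizontal axis). Purple points have an unadjusted p under 0.05. They lie at all distances, most grey points lie within 0.5 of 0, and Gsta1 stands above the rest at 2.72.

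Promoter composition was not itself part of the rule, but it differs with read level, as the shares below show. By symbol or older symbol, 28 members matched RefSeq names, 2 matched more than 1 gene and 18 matched none. RefSeq promoters were at hand for 18 matched genes, of which 17 code for protein. For A430106J12Rik (Ccdc88a) and Dnchc2 (Dync2h1) the promoter is that of the enclosing gene, which may not be the start of the member row. A promoter was counted as CpG-rich with a GC content of at least 55% and an observed-to-expected CpG ratio of at least 0.65 over the 300 bases. By that measure 5 of 17 (29.4%) were CpG-rich: Vgll2, Adamts20, Nap1l5, Ctnnd2 and Ccdc88a. Where RefSeq gives more than 1 start, as for Gng13 and Zbtb32, the promoter of lowest coordinates was used. Counting any start, Gng13 joins them, for 6 of 17 (35.3%) against 42.5% of autosomal genes. With the single start, the share was 39.1% of 16452 autosomal protein-coding genes and 57.0% of the 7808 among them that were tested. It was 10.1% of 3043 genes with at most 4 reads in all 4 libraries.

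The members' median CpG ratio was 0.260, between 0.196 for the genes nearly silent in all libraries and 0.586 for all autosomal genes. Among the 17, CpG-poor promoters thus outnumbered CpG-rich ones. Vgll2, with a CpG-rich promoter, and Tchhl1, whose promoter holds 2 CpG, both had large mutant-to-wild-type ratios, the one for Tchhl1 taken against the floor. The E-box CANNTG was found in 14 of the 17 windows (82.4%), against 68.7% of all autosomal genes and 77.5% of the genes nearly silent in all libraries. With 17 promoters these shares are descriptions and were not tested.

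**Figure D4:**
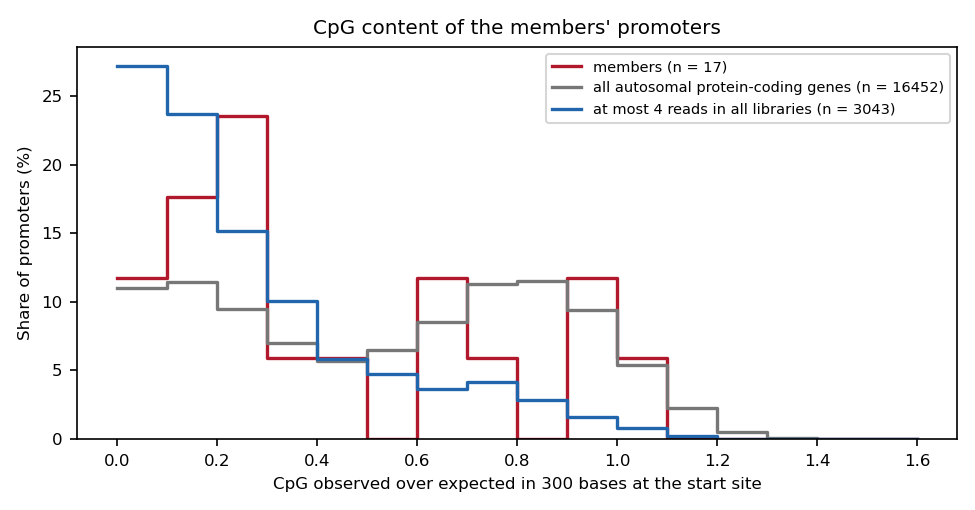
Share of promoters in percent (vertical axis) by observed-to-expected CpG ratio over 300 bases around the start site (horizontal axis), for 17 members, 16452 autosomal protein-coding genes and 3043 such genes with at most 4 reads in all libraries. The members fall mostly below 0.5, with a smaller group between 0.6 and 1.1.

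The limits of the rule cut through rows of similar kind. Of the members, 8 had a lower mutant count of exactly 10, and 15 rows missed the rule with a lower mutant count of 9. A higher wild-type count of exactly 4 was found in 20 members, and 16 rows missed it at 5. Just inside, Ctnnd2 had 10, 10, 2 and 1 reads and Cabyr 11, 12, 4 and 3. Just outside on the wild-type side were the transcriptional cofactor Eya2 (23 and 15 reads against 2 and 5), the neuronal nitric oxide synthase Nos1 (14 and 12 against 5 and 5) and the hormone gene Ghrl (12 and 10 against 1 and 5). Just outside on the mutant side were Ngef (12 and 9 against 0 and 2), Omd (20 and 9 against 4 and 0) and Pck1 (18 and 9 against 2 and 0). These rows were picked by name after their values were seen.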

How the data were processed

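RNA of 4 adult right ventricles was sequenced after duplex-specific nuclease treatment, per the labels' protocols. TopHat 1.2.0, Cufflinks and the mouse build mm9 were used, per the submitters' processing notes. For the counting, neither strand use nor annotation is stated there (not given in the sources used here). Per the file headers, the deposited values are a read count for each row and library. The authors' CPM, pairwise ratio and pairwise p-value were deposited beside them and were not used. Start positions are printed counted from 1.

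Libraries were grouped by title, as hearts of 2 mutants and 2 wild types, and p-values measure the spread between these samples. The counts of 16128 rows kept by filterByExpr were scaled by TMM and compared by the quasi-likelihood test of edgeR 4.0.16 in R 4.3.3, two-sided, with all 4 libraries and no covariate. DESeq2 1.42.0 was the alternative tool. The edgeR step was tested on simulated counts, with changes set only in rows of more reads than any member has. That test does not cover counts as low as the members'. CPM values use TMM-scaled library sizes of 19720131 to 22457546 reads. A ratio pools reads per genotype, and its 95% interval (Clopper-Pearson) covers counting error only. A group without reads was set to a floor of 3 reads. Read counts also depend on row length and nuclease treatment, so they are compared between libraries and not between genes.

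The members, the gene lists and the tests were chosen with earlier results of these data known. Named genes were the 12 members with the largest lower mutant count, members on a list, members called, and members within 1 Mb of another. Other members have reads only. Some members and rows that this rule names are not reported here. Flanking rows within 100 kb were the 8 of smallest p, lists holding a member give the 4 rows of most reads, and mirrored rows were those of most wild-type reads. Names outside this rule, such as marker genes, family members, Myot, Ache and rows near the limits, were added after values were seen. Alternatives were other scalings, filters, limits and windows, and leaving out each library. Leaving out a library for the skeletal muscle list, and counting any promoter start, were added after seeing the data.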

Additional observations from a re-analysis of the deposited data

How the results depend on the processing

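No paired analysis was possible because the groups share only replicate number 1. The rule chose the members by these same reads. The direction of their alternative values was thereby fixed in advance, and nothing is read from the members' calls below. Of the alternative values of tested members, 261 stayed uncalled, 64 became called and 0 reversed. The count of rows called by edgeR was 21, and it was 203 with DESeq2, 156 with total-count scaling, 317 with all rows that had a read and 3 without sex-linked, mitochondrial and very abundant rows. It was 63 to 3675 when leaving out each library, where the library left alone in its group is assumed to vary like the other group. The 48 members became 19 with total-count scaling, 17 with at most 2 wild-type reads, 2 with none and 7 with at least 20 mutant reads. Without a library, 95 to 216 rows met the rule, since 1 limit fewer applies. With TMM-scaled reads 36 rows met it, all among the 48. The 7 mirrored rows became 3 with TMM-scaled reads, 1 with at most 2 mutant reads, 0 with none, 3 with at least 20 wild-type reads and 31 to 54 without a library. The 17 higher flanking rows became 8 within 50 kb, 49 within 500 kb, 6 with a log2 fold change above 1 and 7 to 45 without a library. edgeR called 6 members with total-count scaling and 9 with all rows kept, where 76 and 249 rows in all were called higher. It called 0 members with RLE, another scaling method, and 0 without sex-linked, mitochondrial and very abundant rows. With rows of at least 10 reads in all it called 1. In these 3 settings 14, 2 and 22 rows in all were called higher. Depth limits the set: 22 members had a lower mutant count of 10 to 12.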
